A study of Mus musculus with 7 samples.

Results

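Local clusters are groups of ChIP-seq peaks of a single list that lie close together on a chromosome. They were defined from the peak positions alone: neighbouring peaks of a list were chained when at most 10 kb separated the end of the left peak from the start of the right peak. Chromosomes 1 to 19 except 6 and 13 were used. On these 17 chromosomes 238 of 5384 peaks belonged to 92 clusters, out of 6198 peaks in the 3 lists as a whole.

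The study mapped protein binding in mouse embryonic stem cells by chromatin immunoprecipitation and sequencing (ChIP-seq), and 1 library per group had a peak list that was used here. In the first, an anti-SET antibody precipitated endogenous SET from cells of the R1 line. In the second and the third, an anti-HA antibody precipitated SETα or SETβ from KH2 cells that over-expressed the named isoform, with doxycycline at 1 μg/mL and over-expression for 8 hours per the labels' protocols. That text names the treated samples by numbers which the samples do not carry, so the treatment is given only for the libraries whose own labels hold it. The SET library differs from the isoform libraries in antibody, cell line and induction, so the effects of these on a difference between the lists cannot be told apart. The level of the over-expressed isoforms relative to endogenous SET was not analysed here, and a peak list holds nothing against which the cell type could be checked. Of the 7 samples of the series, 2 input and 2 linker histone H1 samples were not analysed here.

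SET is a chaperone that binds histones and keeps them from being acetylated, and it also inhibits a major protein phosphatase. Its isoforms SETα and SETβ differ at their amino-terminal end. KH2 cells are a mouse embryonic stem cell line made for doxycycline-induced expression of a transgene. In ChIP-seq, a run of peaks along a few kilobases can come from a protein spread over a stretch of chromatin, and it can also come from repeated sequence on which the reads of many genomic copies are placed. A peak list without its input does not tell these apart.

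Each peak carries the authors' score, which can be ranked within a list. Scores of different lists are set side by side here without a comparison of strength, because the depth of the libraries is unknown. With 1 library per group there is no replicate check, and no test was run on any value below. Intervals are 95% Wilson intervals for shares and 95% Newcombe intervals for differences of shares. They cover the counting of peaks only and treat peaks as independent, which neighbouring peaks are not.

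The 3 lists placed a small share of their peaks in clusters. In the SET list 121 of 3017 peaks (4.01% of the list, interval 3.37 to 4.77%) formed 58 clusters. In the SETα list 55 of 1006 peaks (5.47%, 4.22 to 7.05%) formed 15 clusters. In the SETβ list 62 of 1361 peaks (4.56%, 3.57 to 5.80%) formed 19 clusters. These shares are what the chaining rule selects and are given as a description.

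The lists differed in how their clustered peaks were divided. SET clusters were nearly all pairs: 53 held 2 peaks and 5 held 3 peaks. SETα had 10 pairs, 3 clusters of 3 peaks, 1 of 4 and 1 of 22. SETβ had 16 pairs, 2 clusters of 4 peaks and 1 of 22. The 22-peak cluster, on chromosome 9, held 40% of the clustered SETα peaks and 35.5% of the clustered SETβ peaks. Without it, 3.35% of SETα peaks and 2.99% of SETβ peaks were clustered.

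The median gap inside the clusters was longer for SET than for the isoforms. Among the 63 SET gaps the median was 4495 bp (interquartile range 2112.5 to 7742.5 bp), 5 gaps were at most 1 kb and 28 were over 5 kb. Among the 40 SETα gaps the median was 1465 bp (507.75 to 3349.5 bp), 18 were at most 1 kb and 7 were over 5 kb. Among the 43 SETβ gaps the median was 1438 bp (794 to 4413 bp), 17 were at most 1 kb and 10 were over 5 kb. The short isoform gaps came in part from chromosome 9. Without the 22-peak clusters the median gap was 2530 bp over 19 SETα gaps and 3241 bp over 22 SETβ gaps. In pairs alone the median span was 5.22 kb for SET, 4.36 kb for SETα and 6.27 kb for SETβ. By this measure SETβ pairs were not shorter than SET pairs.

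**Figure D1:**
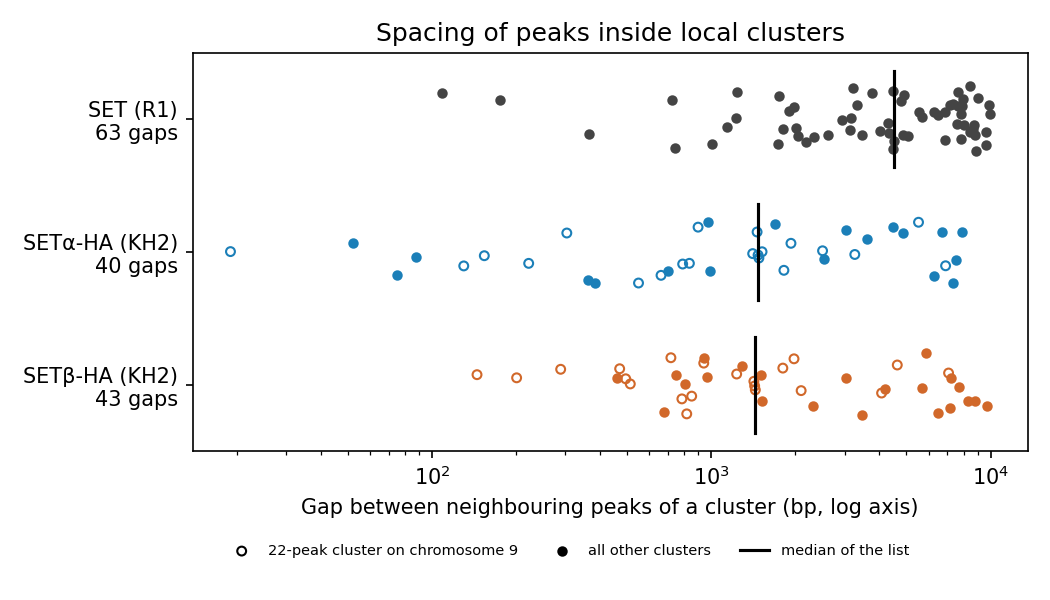
Each point is the gap in bp (log axis) between neighbouring peaks of a cluster, in 1 row per list, with open points for the 22-peak cluster on chromosome 9 and a bar at the median. SET gaps run from 109 to 9915 bp with a median of 4495 bp, and the isoform medians lie at 1465 bp for SETα and 1438 bp for SETβ.

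The smallest gaps were 109 bp on chromosome 11 and 175 bp on chromosome 17 for SET, 19 bp on chromosome 9 and 52 bp on chromosome 3 for SETα, and 145 bp and 201 bp, both on chromosome 9, for SETβ. Just inside the limit of 10 kb lay SET gaps of 9843 bp on chromosome 12 and 9915 bp on chromosome 2, SETα gaps of 7498 bp on chromosome 17 and 7888 bp on chromosome 8, and SETβ gaps of 8781 bp and 9709 bp on chromosome 8. Just outside lay SET gaps of 10116 bp on chromosome 2 and 10322 bp on chromosome 14. For SETα the first gaps outside were 10610 bp and 12266 bp, both on chromosome 8, and for SETβ they were 10146 bp on chromosome 9 and 10215 bp on chromosome 7. The limit therefore falls inside a continuous run of gaps for SET and SETβ, and in a space between 7888 and 10610 bp for SETα.

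Spans were similar in the 3 lists apart from chromosome 9. The median cluster span was 5.39 kb for SET (0.548 to 10.8 kb), 5.15 kb for SETα (0.401 to 38.3 kb) and 6.19 kb for SETβ (1.70 to 38.3 kb). Peaks covered a median of 6.31% of the span in SET clusters, 11.6% in SETα clusters and 12.9% in SETβ clusters, so most clusters were short peaks set apart in unmarked sequence. The densest spans were the SETα pairs at chr3:148715439-148715839 (87.0% covered) and chr10:6104499-6105024 (85.7%), and the SET pair at chr11:66917444-66917991 (80.1%), in which each pair of peaks nearly touches. Outside the clusters, the nearest peak of the same list lay a median of 134 kb away for SET, 303 kb for SETα and 279 kb for SETβ.

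Clusters of SET lay on all 17 chromosomes, with at most 6 on any of them. SETα clusters lay on 10 chromosomes and SETβ clusters on 8. Chromosomes 1 and 8 held 8 of 58 SET clusters (13.8%, interval 7.16 to 24.9%) beside 12.9% of all SET peaks. They held 6 of 15 SETα clusters (40%, 19.8 to 64.3%) beside 30.1% of the peaks, and 11 of 19 SETβ clusters (57.9%, 36.3 to 76.9%) beside 29.4% of the peaks. Positions are what the chaining rule selects, and chromosomes with many peaks yield more close pairs, so nothing is read from these shares.

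Most clusters belonged to a single list. Merging clusters of different lists whose spans touch gave 85 regions, of which 79 held a cluster of 1 list, 5 held clusters of 2 lists and 1 held clusters of all 3. By list, 2 of 58 SET clusters (3.45%) touched a cluster of another list, against 6 of 15 SETα clusters (40%) and 5 of 19 SETβ clusters (26.3%). The share of all peaks that overlapped a peak of another list was 5.04% for SET, 17.6% for SETα and 15.1% for SETβ. This was the same order as for the clusters, but the order of the isoforms depended on the setting. With lists of equal length, 4 of 15 SETα clusters (26.7%) and 5 of 7 SETβ clusters (71.4%) touched a cluster of another list. With scores of at least 50 or a gap limit of 5 kb SETβ also had the higher share. In the other settings run SETα did. Between the isoforms, 5 SETα clusters (33.3% of its clusters) touched 5 SETβ clusters (26.3% of its clusters).

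The region with a cluster in every list was on chromosome 2. There the SET cluster at chr2:98502318-98507495 had 3 peaks, the SETα cluster at chr2:98502365-98507511 had 4, and the SETβ cluster at chr2:98502349-98507527 had 4. Each SET peak overlapped a peak of both isoforms, in the same order. The SET scores along the stretch were 508, 373 and 987, the SETα scores were 2120, 63.9, 922 and 3100, and the SETβ scores were 2274, 63.4, 832 and 3100. The second peak, listed only for the isoforms, was the lowest of its cluster in both lists and the least aligned, with midpoints 120 bp apart, while the other 3 isoform pairs had midpoints within 1 bp of each other. In each list the last peak, over 1 kb wide (1106 bp for SET, 1138 bp for SETα and 1171 bp for SETβ), held the highest score. The value 3100 was the highest of the whole list for both isoforms, and whether it is an upper limit of the score was not tested.

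The 22-peak clusters opened chromosome 9. The SETα cluster at chr9:3000006-3038289 and the SETβ cluster at chr9:2999969-3038286 began with the first peak of their list on that chromosome and spanned 38.3 kb each. Mouse chromosomes carry their centromere at this end, and the assembled sequence begins beyond it. Of the 22 SETα peaks, 18 overlapped a SETβ peak. In the other direction the count was 17 of 22, since the first SETβ peak spans 2 SETα peaks. Midpoints of the 18 overlapping pairs lay a median of 13.75 bp apart (0.5 to 197.5 bp).

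Both 22-peak clusters were dense at their start, before a wide gap. Up to 3004862, 7 SETα peaks and 6 SETβ peaks were listed. The widest gap followed in each list, 6901 bp for SETα and 7073 bp for SETβ, and it ended at a peak near 3011764 that scored 48.8 for SETα and 48.65 for SETβ. The highest SETα score was 243.8 at chr9:3023415-3023617, where SETβ scored 277.7. The highest SETβ score was 317.8 at chr9:2999969-3000745, where the 2 SETα peaks scored 76.7 and 101.4. Across the 18 overlapping pairs the scores of the lists had a Spearman rho of 0.57, which describes sites of the same 2 libraries and treats the first SETβ peak as 2 points.

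Some peaks of the 22-peak clusters had no counterpart in the other isoform list. For SETα these were 4 peaks, scoring 57.1, 48.4, 66.2 and, at chr9:3032378-3032734, 183.7. For SETβ these were 5 peaks with scores of 59.9 to 80.1. Among peaks with no neighbour the median score was 56.5 for SETα and 55.4 for SETβ, and of these 9 peaks only the SETα peak of 48.4 lay below it. The SET list held 2 peaks in this stretch, at chr9:3002529-3002614 (score 45.7) and chr9:3036016-3036107 (53.0). They were 33401 bp apart, so they formed no cluster, and each overlapped a peak of both isoforms.

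**Figure D2:**
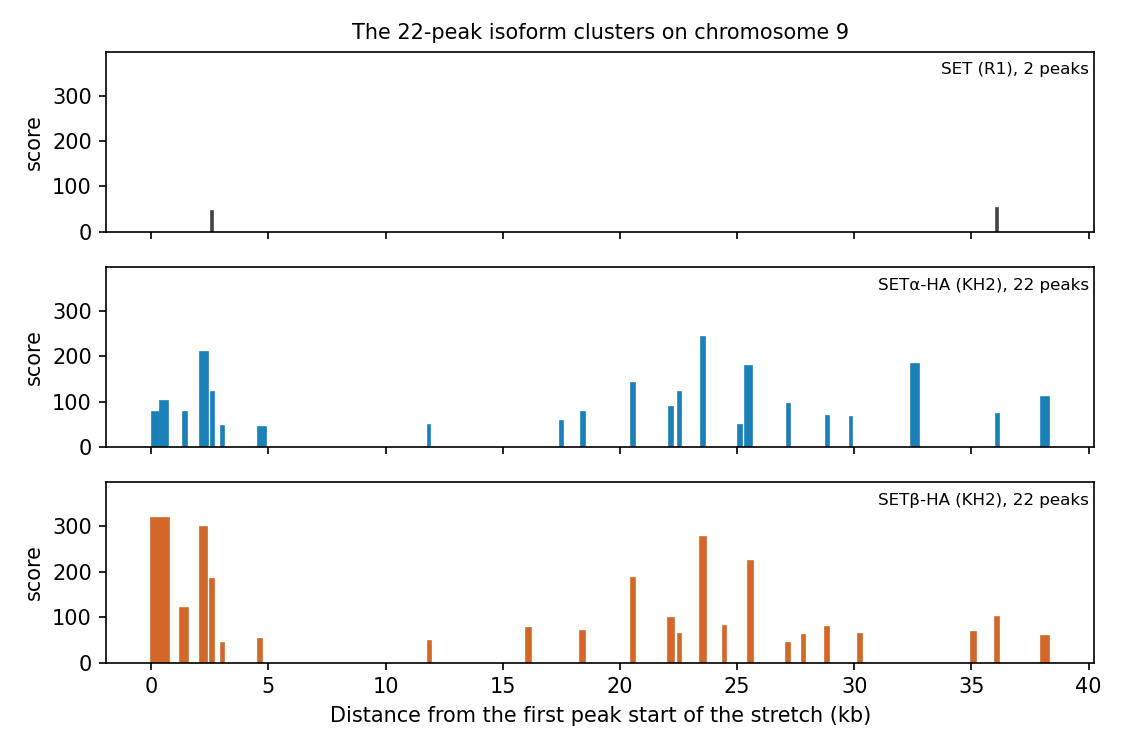
Authors' score (vertical axis from 0) of every peak in the stretch against distance in kb from its first peak start, in 1 panel per list, with bar width equal to peak width. The 22 SETα and 22 SETβ peaks leave the same empty interval of about 7 kb (6901 and 7073 bp) near the start, and SET has 2 peaks.

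A further cluster common to the isoforms lay on chromosome 17 and was made of wide peaks. The SETα cluster at chr17:39979897-39985169 held 3 peaks of 808, 799 and 752 bp, with scores of 100.3, 93.6 and 59.1. The SETβ cluster at chr17:39979902-39985324 held 4 peaks of 807, 398, 374 and 1204 bp, with scores of 74.9, 56.6, 44.6 and 104.9. The first peaks coincided, with midpoints 4.5 bp apart, and the last peaks overlapped. Between them the lists differed: the SETα peak at chr17:39983235-39984033 ended before the last SETβ peak began, and the 2 middle SETβ peaks overlapped no SETα peak. The SET list had no peak in this span.

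**Figure D3:**
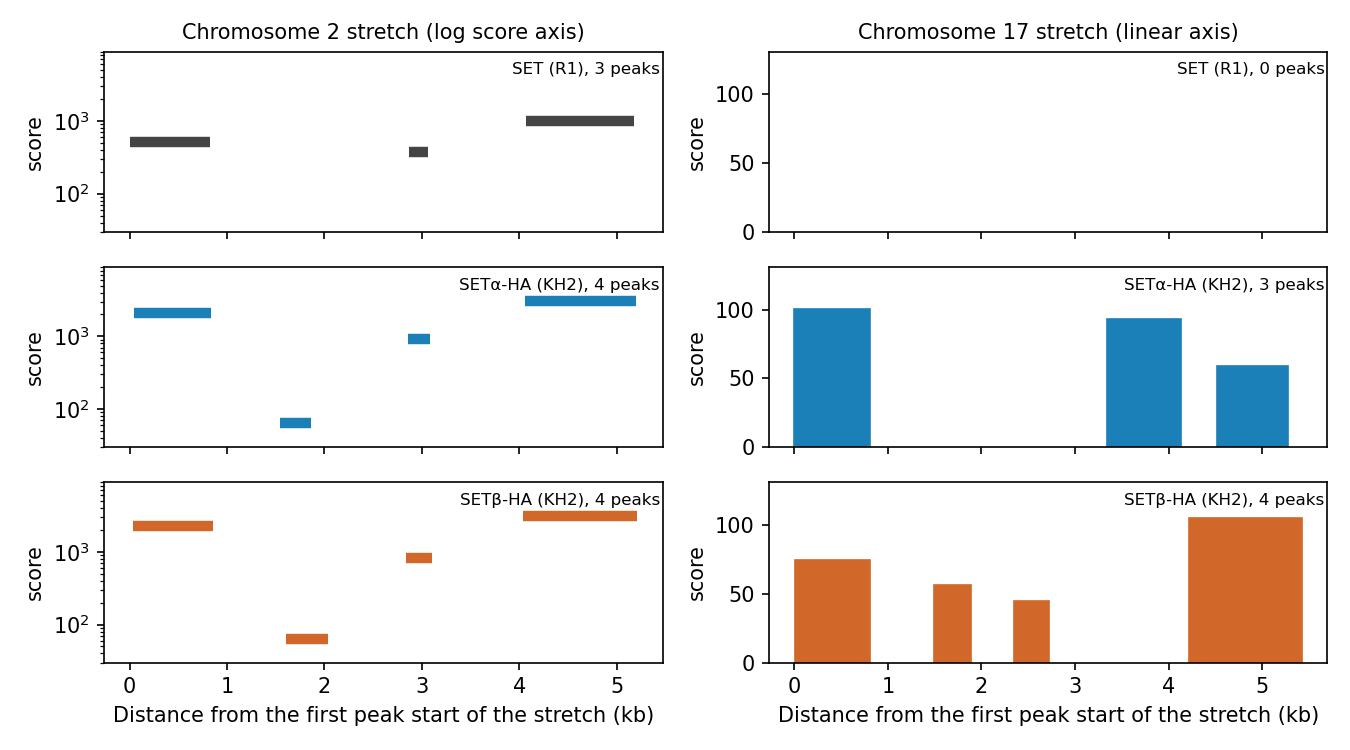
Peaks of the chromosome 2 stretch (left, log score axis, each segment a peak at its score) and of the chromosome 17 stretch (right, linear score axis from 0, bar width equal to peak width) against distance in kb from the first peak start, in 1 row per list. The chromosome 2 peaks recur in all 3 lists apart from the second isoform peak, and the chromosome 17 cluster has 3 SETα, 4 SETβ and 0 SET peaks.

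Several of the widest peaks were clustered. On the chromosomes used, the 2 widest SET peaks (1106 and 823 bp) were on chromosome 2 in the cluster, and the next, 473 bp wide, had no neighbour, nor did the other SET peaks among the 10 widest. Of the 6 widest SETα peaks, 5 were clustered, on chromosomes 2 and 17, and the exception was 790 bp wide at chr15:74916661-74917450. Of the 8 widest SETβ peaks, 7 were clustered, 2 of them on chromosome 8 and the others on chromosomes 2, 9 and 17, and the exception was 816 bp wide at chr15:74916637-74917452. Of all peaks on these chromosomes, 4.01% of SET, 5.47% of SETα and 4.56% of SETβ peaks were clustered. The number of wide peaks to list was chosen after their widths were seen. Further down the 10 widest, SETα ranks 7, 8 and 9 and SETβ ranks 9 and 10 had no neighbour, and SETα rank 10 was clustered.

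On chromosome 8, clusters of both isoforms were scattered over a longer stretch, from 19.7 to 20.1 Mb, whose limits were chosen after the values were seen. It held 11 SETα peaks separated by 10 gaps, of which 3 were within 10 kb and 3 more between 10 and 20 kb. It held 10 SETβ peaks, with 3 of 9 gaps within 10 kb and 2 more up to 20 kb. SETα had clusters at chr8:19722446-19735639 (3 peaks, scores 41.5, 57.1 and 50.2) and chr8:19922182-19929094 (2 peaks, 41.0 and 49.1). SETβ had pairs at chr8:19718540-19722696 (51.9 and 68.7), chr8:19922430-19930672 (47.9 and 44.6) and chr8:19940907-19950796 (44.2 and 44.3). All of these scores lay below the median of the clustered peaks of their list (76.6 for SETα and 60.5 for SETβ) except that of the SETβ peak of 68.7.

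The chromosome 8 clusters touched without coinciding. The spans of the first SETα and SETβ clusters shared 251 bp, at a single pair of peaks with midpoints 9 bp apart. The spans of the second SETα and SETβ clusters shared 6665 bp, yet only their first peaks overlapped, with midpoints 304 bp apart. The last SETβ pair began 11.8 kb after the second SETα cluster ended. The SET list had 3 peaks in the stretch and none was clustered. Among all peaks there, clustered or not, 3 of 11 SETα peaks and 4 of 10 SETβ peaks overlapped a peak of another list. The shares over the whole lists were 17.6% for SETα and 15.1% for SETβ, and nothing is read from counts this small.

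**Figure D4:**
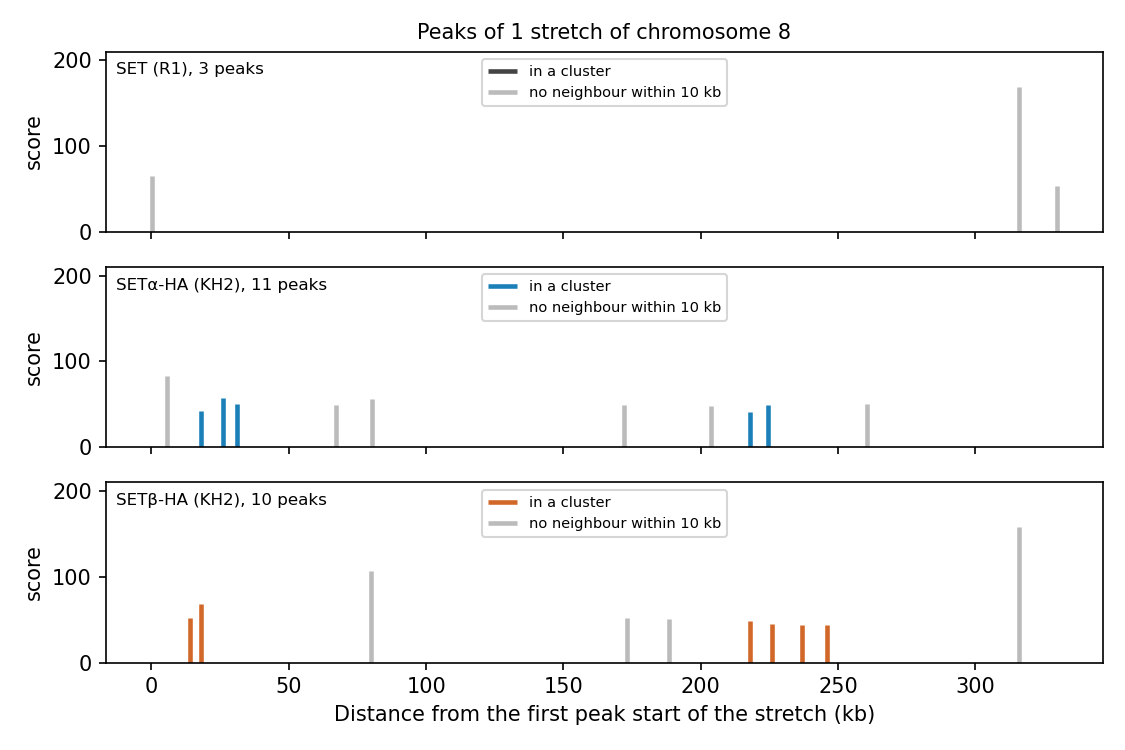
Authors' score of every peak from 19.7 to 20.1 Mb on chromosome 8 against distance in kb from the first peak start, in 1 panel per list, with clustered peaks in colour and peaks with no neighbour within 10 kb in grey. SETα has 5 clustered peaks of 11 and SETβ 6 of 10, and no SET peak is clustered.

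A second place on chromosome 8 showed isoform pairs side by side. The SETβ pair at chr8:74351551-74354238 (scores 78.0 and 40.6) ended 9087 bp before the SETα pair at chr8:74363326-74367305 (44.9 and 71.8) began. No peak of another list lay within either pair. On chromosome 1, the SETα cluster at chr1:173031994-173033293 held 3 peaks within 1.30 kb (65.9, 58.6 and 76.6), and the SETβ list had 1 peak there, over the middle SETα peak. The SETβ pair at chr1:172967045-172975359 (52.0 and 48.5) lay 56.6 kb away, with 1 SETα peak over its first peak.

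The remaining contact between clusters of different lists was on chromosome 10. The SET pair at chr10:6097101-6105003 had peaks 7603 bp apart that scored 47.3 and 69.9. The SETα pair at chr10:6104499-6105024 had peaks 75 bp apart that scored 53.8 and 80.6, and its right peak overlapped the right SET peak. SETβ had a single peak over that site, with a score of 83.6. The contact was thus a single shared site with a different second peak in each list.

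Clusters with the highest scores elsewhere were mostly pairs of peaks with unequal scores. For SET these were the pairs at chr7:25162911-25170420 (163.9 and 45.5) and chr8:3286393-3293969 (130.1 and 47.3). For SETα the third highest was at chr17:23677858-23685965 (58.6 and 115.1). For SETβ the second highest was at chr2:167714902-167721087, where a peak of 45.9 lay 5693 bp from a peak of 331.9 that overlapped a peak in both other lists. The best peak scored at least 2 times the next in 2 SET, 0 SETα and 4 SETβ clusters.

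SET clusters of 3 peaks away from chromosome 2 were found in no other list. They lay at chr14:20902546-20913307 (scores 52.4, 52.2 and 48.1), chr17:15062449-15070709 (46.4, 49.5 and 45.9), chr18:24521616-24531880 (53.3, 43.3 and 50.5) and chr8:83315701-83325322 (48.3, 47.2 and 89.7). None of these 4 held an isoform peak in its span, and only 5.04% of all SET peaks overlapped an isoform peak. The median score of SET peaks with no neighbour was 47.3. Their spans ran from 8.26 to 10.8 kb, with peaks over 4.89 to 8.44% of the span.

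Most clusters of the SET list had no isoform peak in their span either. Of the 58 SET clusters, 52 (89.7%) had no isoform peak anywhere in their span, and the nearest isoform peak lay a median of 419.5 kb away (6.38 kb to 2368 kb). Over the whole SET list 5.04% of peaks overlapped an isoform peak. For SETα, 5 of 15 clusters (33.3%) had no peak of another list in their span, and the nearest was a median of 15.7 kb away. For SETβ this held for 9 of 19 clusters (47.4%), with a median distance of 145 kb. Of all peaks, 17.6% of SETα and 15.1% of SETβ peaks overlapped a peak of another list. A cluster span is longer than a peak, so the shares of clusters and of peaks are unlike measures.

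Clusters could also recur as a single peak. Such clusters, with a peak but no cluster of another list in their span, numbered 4 for SET, 4 for SETα and 5 for SETβ. In every one of these 13 clusters exactly 1 own peak was overlapped. This follows largely from how they were chosen, since 2 neighbouring peaks of another list would usually form a cluster there. The overlapped peak was the best-scoring of its cluster in 2 of 4 SET, 3 of 4 SETα and 5 of 5 SETβ clusters. Overlap goes with score over whole lists, and nothing is read from counts this small. Among the SETβ ones were chr8:86270609-86280931, where the peak of 296.6 and not that of 45.9 was overlapped, and chr1:161632027-161638371, where it was the peak of 124.0 and not that of 44.9.

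Clustered peaks of an isoform overlapped the other isoform more often than its other peaks did, mostly in 2 stretches. The chaining rule did not use the other list, but a stretch dense in both lists counts once per peak. The 22-peak clusters on chromosome 9 held 18 of the 31 SETα and 17 of the 30 SETβ overlapping peaks. The chromosome 2 clusters held 4 of each. Of the 55 clustered SETα peaks, 31 (56.4%, interval 43.3 to 68.6%) overlapped a SETβ peak, beside 14.7% of the whole SETα list and 117 of 951 SETα peaks with no neighbour (12.3%). The difference was 44.1 percentage points (30.8 to 56.5). Of the 62 clustered SETβ peaks, 30 (48.4%, 36.4 to 60.6%) overlapped a SETα peak, beside 10.8% of the list and 117 of 1299 with no neighbour (9.01%), a difference of 39.4 points (27.3 to 51.6).

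The difference was smaller away from the stretches of chromosomes 2 and 9. Without them, 9 of 29 clustered SETα peaks (31.0%, 17.3 to 49.2%) overlapped SETβ, 18.7 points above the peaks with no neighbour (4.79 to 37.0). For SETβ, 9 of 36 clustered peaks (25%, 13.8 to 41.1%) overlapped SETα, 15.99 points above (4.62 to 32.1). Of these 9 overlapping peaks, 2 lay in the chromosome 17 cluster for each isoform. Both isoform libraries share an antibody and a cell line, and the part of sites that gather reads in any such library was not tested.

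Overlap goes with score, so the shares were also given by score. The median score was 76.6 for clustered SETα peaks against 56.5 for those with no neighbour, and 60.5 against 55.4 for SETβ. Without the 22-peak clusters the clustered medians were 65.8 for SETα and 52.0 for SETβ, so for SETβ the clustered peaks then scored lower than the others. Under a score of 60, 7 of 19 clustered SETα peaks (36.8%) overlapped SETβ against 8 of 567 with no neighbour (1.41%). From 60 to under 100 this was 10 of 21 (47.6%) against 16.3%, and at 100 or more 14 of 15 (93.3%) against 54.5%. For SETβ the shares overlapping SETα were 22.6% of 31 against 1.53% under 60, 53.3% of 15 against 11.3% in the middle class and 93.8% of 16 against 36.8% at 100 or more. The clustered share was the higher in all 6 classes. At 100 or more, only 3 of the 15 SETα and 5 of the 16 SETβ clustered peaks lay outside the stretches of chromosomes 2 and 9. Peaks of the same stretch are not independent, so no interval of a difference is read as a test. Without these stretches the interval of the difference spanned 0 for SETα from 60 to under 100 (0.317 points, -12.6 to 28.7). It also spanned 0 for SETα at 100 or more (3 of 3 peaks, 45.5 points, -11.3 to 54.3). In the other 4 classes, which held 5 to 25 clustered peaks, the clustered share was the higher, on 2 to 4 overlapping peaks each. Nothing is read from counts this small. For SETα under 60, 4 of 14 overlapped (27.2 points, 10.3 to 53.2). For SETβ under 60, 2 of 25 did (6.47 points, 0.598 to 23.5). From 60 to under 100, 3 of 6 SETβ peaks did (38.7 points, 7.07 to 70.1), and at 100 or more 4 of 5 (43.2 points, 0.182 to 60.7).

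**Figure D5:**
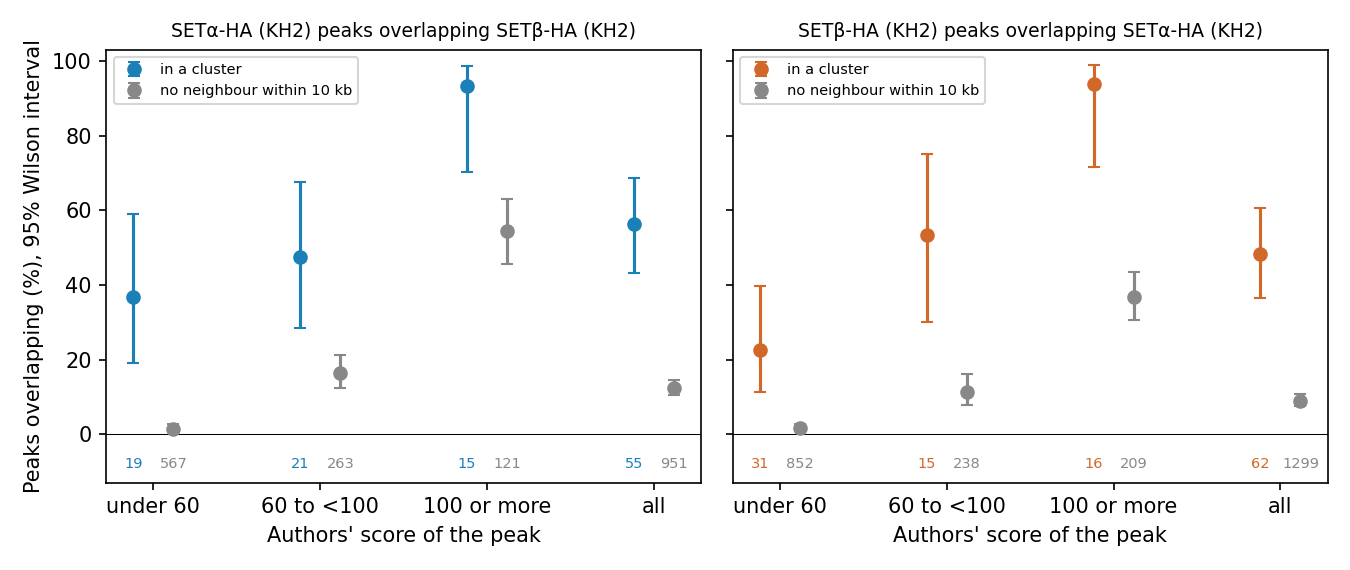
Share of SETα peaks that overlap SETβ (left) and of SETβ peaks that overlap SETα (right), in percent, by class of the authors' score, for peaks in a cluster (colour) and with no neighbour within 10 kb (grey). Bars are 95% Wilson intervals and the numbers at the bottom are peaks per class, and the clustered share is the higher in every class, for example 56.4% against 12.3% over all SETα peaks.

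For overlap with SET, the intervals of the corresponding differences spanned 0. Of the clustered SETα peaks, 6 of 55 (10.9%, interval 5.10 to 21.8%) overlapped a SET peak, beside 9.34% of the list and 9.25% of those with no neighbour, a difference of 1.66 points (-4.49 to 12.7). Of the clustered SETβ peaks, 7 of 62 (11.3%, 5.58 to 21.5%) did, beside 9.04% of the list and 8.93% of those with no neighbour, a difference of 2.36 points (-3.59 to 12.7). Of the clustered SET peaks, 6 of 121 (4.96%, 2.29 to 10.4%) overlapped SETα, beside 3.12% of the list, and 7 of 121 (5.79%, 2.83 to 11.5%) overlapped SETβ, beside 4.08%. Taking either isoform, 8 of 121 (6.61%, 3.39 to 12.5%) did, beside 5.04% of the list and 4.97% of those with no neighbour, a difference of 1.64 points (-1.70 to 7.58). The stretches of chromosomes 2 and 9 held part of these overlaps. Without the stretches, 1 of 29 clustered SETα peaks (3.45%, -5.81 points, -9.28 to 8.02) and 2 of 36 clustered SETβ peaks (5.56%, -3.37 points, -7.73 to 9.30) overlapped SET. For SET, 5 of 118 clustered peaks (4.24%, -0.735 points, -3.30 to 4.62) then overlapped either isoform. All 3 differences thus turned sign, with intervals that span 0. Overlap with both other lists at once was found for 7 of 62 clustered SETβ peaks (11.3%) beside 4.78% of the list and 4.46% of those with no neighbour, a difference of 6.83 points (0.975 to 17.1). Without the stretches this was 2 of 36 (5.56%), a difference of 1.09 points (-3.12 to 13.7). For SETα and SET the intervals of this difference spanned 0 with and without the stretches.

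Clustered SET peaks were close to the other SET peaks in score and width. Their median score was 48.5 (interquartile range 46.2 to 53.4) against 47.3 (45.7 to 53.4), and their median width 193 bp against 198 bp. The score 47.34 alone was carried by 230 of the 3017 SET peaks (7.62%) and by 13 of the 121 clustered ones (10.7%). Repeated scores of this kind were also found for SETα, where 53.25 was the most frequent (52 peaks, 1 of them clustered), and for SETβ, where 59.02 was (64 peaks, 0 of them clustered). Median widths of clustered peaks were 216 bp against 223 bp for SETα and 261 bp against 256 bp for SETβ. Without the 22-peak clusters they were 252 bp for SETα and 313.5 bp for SETβ.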

How the data were processed

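Bowtie 0.12.7, MACS 1.4 and build mm9 are named per the submitters' processing notes. For parameters and the use of the inputs, nothing is given in the sources used here. The authors deposited 1 peak list per library, with the position and the authors' score of each peak. No file states its scale. Peaks of a list did not overlap each other. Read depth is unknown, so no interval on a peak's signal can be given.

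Peaks were chained at gaps of at most 10 kb. Clusters of different lists recurred when their spans shared at least 1 bp, and peaks overlapped at 1 bp. Named regions are clusters of 3 or more peaks, clusters in all lists, the 3 with the highest peak per list, and the gaps nearest the limit and the smallest. Other regions were chosen after their values were seen. The members and lists were chosen with earlier results of these data known. Positions count from 1. Genes and sequence were not analysed here, because the tables used are on GRCm38. Alternatives were other gap limits (5 and 20 kb), a minimum score of 50, equal list lengths, all chromosomes, stricter overlap and omitted clusters. The computation used scipy 1.17.1, pandas 2.3.3 and numpy 2.4.6 in Python 3.11.15, with figures from matplotlib 3.10.9, and was tested on simulated data.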

Additional observations from a re-analysis of the deposited data

How the results depend on the processing

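Of 84 values under alternative settings, 46 stayed close to the reported one (counts within 1.5 times, shares within their interval) and 38 moved. With a gap limit of 5 kb there were 33 SET and 11 SETβ clusters, holding 2.25% and 3.23% of peaks, and with 20 kb there were 116 and 31, holding 7.99% and 6.54%, and 35.96% of clustered SETβ peaks overlapped another list. With scores of at least 50, SET had 17 clusters (3.04% of peaks) and SETβ 9 (3.36%), and 14.3% of clustered SET peaks overlapped another list. With each list cut to 1006 peaks, SET had 13 clusters (2.68%) and SETβ 7 (3.08%), and the SETα list was whole. With all chromosomes SETβ had 29 clusters, and 5 SET, 10 SETα and 10 SETβ clusters touched one of another list. That number was 1 for SET with 5 kb, scores of at least 50, equal lengths, spans shared by 50%, 2 overlapping peaks, or without its most populous cluster, and 3 for SETα and 3 for SETβ with 2 overlapping peaks required. Without the most populous cluster, 3.35% of SETα and 2.99% of SETβ peaks were clustered, and 39.4% and 32.5% of those overlapped another list. Without the chromosome 2 and 9 stretches, an alternative added once the data had been seen, these shares were 2.96% and 2.70%, and 31.0% and 25%. The number of SETα clusters stayed within 1.5 times under every setting run. No paired analysis was possible because each group has 1 library with a list. Depth is unknown, so a cluster missing from a list is an absent call.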
